A study of Mus musculus with 4 samples.

Results

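Of the 23946 regions listed for acetylation of lysine 27 on histone H3 (H3K27ac) in mouse embryonic stem (ES) cells, 595 regions (2.48%) had a signal at least 2-fold lower in Zscan4+ than in Zscan4- cells in both replicates. They are called the reduced regions here. They were chosen by their measured values: for each replicate number the difference D was taken as log2(RPKM + 0.5) in Zscan4+ cells minus the same in Zscan4- cells, and a region was kept where D was at most -1 in replicate 1 and in replicate 2. RPKM is the read count of a region scaled to the region's length and to the size of the library. Because this choice used all 4 libraries, the levels and differences of these regions are a description and carry no test.

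All cells were of the line MC1-ZE7, made from MC1 ES cells of strain 129S6/SvEvTac. They were grown without feeder cells in serum and leukemia inhibitory factor, and no other treatment is given. Both groups carried the Emerald reporter, a green fluorescent protein that follows Zscan4, and were separated by flow cytometry. The 2 Zscan4- libraries came from Emerald-negative cells and the 2 Zscan4+ libraries from the bright fraction of Emerald-positive cells. Whether the replicates were separate cultures is not given in the labels, and the spread between them may be partly technical. Replicate 2 of both groups was amplified before size selection and cut to a wider range of fragment sizes than replicate 1. The regions carry no gene names, so the cell type was not checked against marker genes.

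H3K27ac is written by the acetyltransferases p300 and CBP and removed by histone deacetylases, and it marks enhancers and promoters in use. A region that keeps less of it has, in general, a less active regulatory element, while neighbouring elements of one gene can carry the mark independently. The Zscan4 genes encode zinc-finger proteins, are switched on in ES cells for short times, and are otherwise known from the 2-cell embryo and from telomere maintenance. In material pooled from many cells, a weaker mark in every cell and loss of the mark in a share of the cells cannot be told apart.

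Reads recovered from the RPKM numbered 9939019 in Zscan4- replicate 1 and 17761552 in its replicate 2, then 18284333 and 15920051 in the corresponding Zscan4+ libraries. The median D over all listed regions was -0.37 in replicate 1 and 0.05 in replicate 2, so the limit of -1 lay closer to the middle of the list in replicate 1. In replicate 1, 3349 regions reached the limit, and in replicate 2 there were 749. The 595 regions common to both made up 17.8% of the first list and 79.4% of the second. Among the 4 libraries, the number depended most on Zscan4+ replicate 2: without it, with both comparisons made on Zscan4+ replicate 1, 2625 regions met the rule. After each library had been centred on its median, 562 regions met it, of which 434 were among the 595. All 595 stayed below 0 in both replicates. The limit of -1 fixed this, as centring moved their median D only to -1.18 and -1.27 in replicates 1 and 2. With quantile normalization 984 regions met the rule, of which 513 were among the 595.

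**Figure D1:**
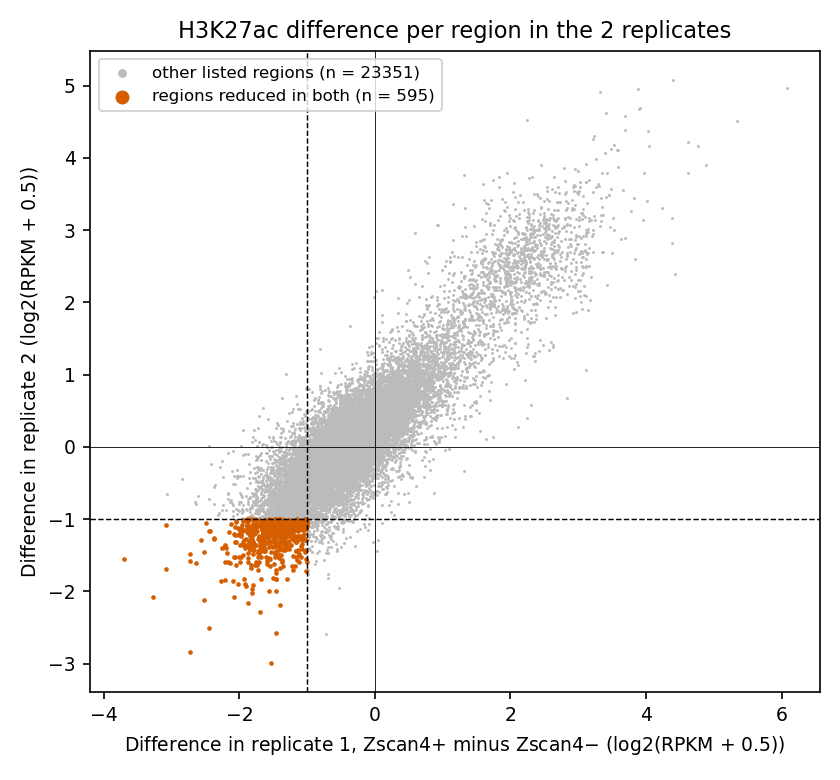
Each point is 1 listed region, with D in replicate 1 on the x axis and D in replicate 2 on the y axis, both as differences of log2(RPKM + 0.5); dashed lines mark the limit of -1. The 595 reduced regions fill the lower left corner, mostly close to the horizontal limit, and only 5 of them lie at or below -2 on both axes.

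Most of the reduced regions lay close to the limit. The median D was -1.47 in replicate 1 (quartiles -1.71 and -1.27) and -1.18 in replicate 2 (quartiles -1.36 and -1.09). Relative to the median of all regions the 2 replicates were more alike, at -1.10 and -1.23. The difference was the larger of the 2 in replicate 1 at 474 regions (79.7%). In 365 regions (61.3%) the higher of the 2 values was above -1.2, 52 regions reached -1.5 in both replicates, and 5 reached -2 in both. The 2 regions just inside the limit, R18874 (chr6:145024239-145024467) and R06642 (chr14:27987151-27988592), had D of -1.56 and -1.16 in replicate 1 and lay at -1.0 in replicate 2. Just outside it, R13285 (chr2:166571449-166572956) and R04367 (chr11:118412579-118413592) had -1.49 and -1.94 in replicate 1 and, to that rounding, the same value in replicate 2.

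In Zscan4- cells the reduced regions had medians close to those of the list but few members at its lower end. Their median level was 4.93 RPKM in Zscan4- replicate 1 (range 2.09 to 58.20) and 5.22 in replicate 2 (1.95 to 63.41), against medians of 4.77 and 5.08 over all regions. In these libraries 73 and 64 of them lay below the lower quartile of the list. In Zscan4+ cells they stood near the bottom of the list, with medians of 1.55 RPKM (0.17 to 17.94) in replicate 1 and 2.01 (0.25 to 28.29) in replicate 2. The median reduced region ranked at percentile 52.7 and 52.2 of the list in the Zscan4- libraries, and at percentile 5.52 and 3.24 in the Zscan4+ libraries. Both Zscan4+ values were below both Zscan4- values in 595 of 595 regions, which held for 35.1% of all listed regions, a count that the choice of regions largely fixes. The Zscan4- replicates were within 1.5-fold of each other in 548 regions (92.1%). Zscan4+ replicate 2 was above replicate 1 in 495 of the reduced regions (83.2%) and in 92.7% of all regions.

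**Figure D2:**
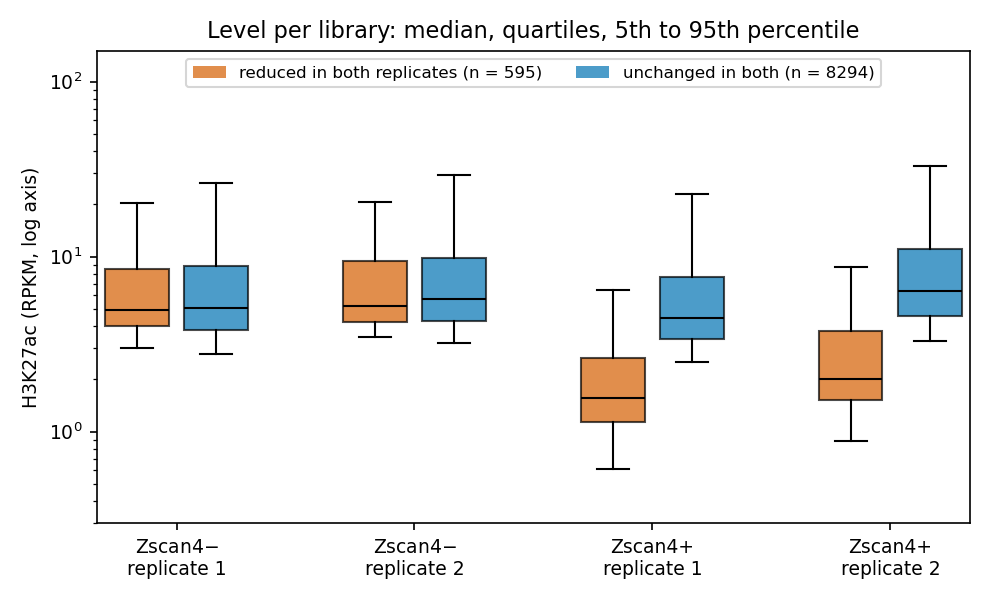
H3K27ac in RPKM on a log axis in each of the 4 libraries for the 595 reduced regions and for 8294 regions unchanged in both replicates (D between -0.5 and 0.5); boxes show the median and quartiles and whiskers the 5th to 95th percentile. The 2 sets start at like medians in Zscan4- cells, at 4.93 and 5.10 RPKM in replicate 1, and in Zscan4+ replicate 1 they stand at 1.55 and 4.46 RPKM.

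The signal at these regions was lower in Zscan4+ cells by the rule, and seldom fell below 10% of its Zscan4- level. The share of the Zscan4- RPKM that remained in Zscan4+ cells had a median of 29.9% in replicate 1 (quartiles 24.6% and 35.6%) and 39.2% in replicate 2 (33.6% and 42.6%), against 75% and 104% over all regions. The mean of both replicates had a median of 34.5% with an SD of 6.6 between the replicate medians (n = 2). Less than 25% remained in both replicates at 25 regions, and less than 10% in both at 2. In Zscan4+ replicates 1 and 2, 103 and 38 of the reduced regions were under 1 RPKM, and 14 and 5 were under 0.5 RPKM. None was at 0 in a Zscan4+ library, where the lowest values of the whole list were 0.17 and 0.25 RPKM. In the same libraries 450 and 453 of the reduced regions (75.6% and 76.1%) lay below the lower quartile of the list. At the other end, 90 and 96 (15.1% and 16.1%) stayed above the median level of all regions in Zscan4+ replicates 1 and 2.

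The reads behind these values set how precisely each reduction was measured. The median reduced region held 53 and 104 reads in the Zscan4- libraries and 28 and 35 in the Zscan4+ libraries. The exact 95% counting interval of the remaining share stayed below 100% in both replicates at 571 of the 595 regions. It stayed below 50% in both replicates at 88 regions (14.8%), at 312 in replicate 1 and at 116 in replicate 2. Over the pooled reads of each group the median interval ran from 24.3% to 46.1%, and its upper end was below 50% at 427 regions. The same reads chose the regions, so these counts describe precision and are no evidence of a reduction, and replicates differed by more than counting noise. PCR copies are not independent molecules, so such intervals leave out all error other than counting.

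By limma over all regions, at an adjusted p of at most 0.05, 594 of the 595 were called lower, beside 6.82% of the whole list. The same contrast chose the regions, so nothing is read from that count. All 595 were called with the replicate number as a block, beside 10.87% of the whole list. Without Zscan4- replicates 1 and 2 the median log2 difference of the 595 was -1.40 and -1.29, against -0.21 and -0.12 over all regions. Another 1038 regions were called lower without meeting the rule, and 950 of those reached the limit of D in replicate 1.

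The regions with the largest reduction were narrow and weakly covered in Zscan4+ cells. At R18727 (chr6:125826799-125827327) the Zscan4- libraries gave 6.29 and 5.65 RPKM and the Zscan4+ libraries 0.52 and 0.36. Its pooled reads gave a remaining share of 7.5% with an interval of 3.2% to 15.5%, and its nearest listed region was 258 kb away. At R10643 (chr18:42528337-42528837) they gave 3.62 and 3.83 RPKM, then 0.22 and 0.50. At R18727 the replicates of each group were close together. R10643 kept 6.1% and 13.1% in replicates 1 and 2, on 6 pooled reads in Zscan4+ cells. In both regions the distance between the groups follows from the choice by lowest mean D. At 3 others the replicates of the Zscan4+ group disagreed about how much was left. R13442 (chr2:180012308-180012536) went from 15.44 and 13.09 RPKM to 0.72 and 4.13 RPKM. R09127 (chr17:4626258-4626811), the best covered of these with 43 pooled reads in Zscan4+ cells, went from 15.46 and 11.71 to 1.38 and 3.29 RPKM. R01880 (chr10:59331352-59331580) went the other way, from 4.41 and 5.68 to 1.20 and 0.28 RPKM. The remaining 3 of the 8 with the lowest mean D were R07813 (chr15:74350472-74350700), R20317 (chr7:137506289-137506517) and R16863 (chr5:89965130-89965358). They held 3, 3 and 4 pooled reads in the Zscan4+ libraries and 31, 27 and 24 in the Zscan4- libraries. At R16863 the interval of the remaining share ran from 3.4% to 39.3%, so its rank among the largest reductions rests on few reads.

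The most strongly acetylated of the reduced regions kept a level well above that of an ordinary region. R22713 (chr9:62678106-62678423) stood at 54.91 and 63.41 RPKM in Zscan4- replicates 1 and 2, and at 17.94 and 26.95 RPKM in Zscan4+ replicates 1 and 2. Its pooled remaining share was 36.7% (interval 31.4% to 42.8%), and the regions 9.6 kb and 7.0 kb to its sides had 5.57 and 3.38 RPKM or less in the Zscan4- libraries. R14455 (chr3:121946833-121947095) went from 56.83 and 57.81 to 15.24 and 28.29 RPKM. The group difference in both follows from the choice of regions, and R14455 kept 26.8% in replicate 1 and 48.9% in replicate 2. R07558 (chr15:34297393-34297718), with no listed region within 50 kb, went from 58.20 and 49.89 to 12.45 and 17.78 RPKM, the lowest pooled remaining share of these 8 regions at 28.2% (23.5% to 33.8%). Its replicates kept 21.4% and 35.6%, both outside that interval. R15336 (chr4:104887407-104887780) went from 49.36 and 44.23 to 13.20 and 16.84 RPKM. Chromosome 15 held 2 more, R07818 (chr15:74489828-74490126), which kept 26.8% and 45.4% in replicates 1 and 2, and R07767 (chr15:61923896-61924197), which kept 39.8% and 45.4%. The last 2 of the 8 were R21295 (chr8:77607323-77607551) and R15823 (chr4:133675442-133675671), with pooled remaining shares of 40.0% and 31.6%. In each of the 8, replicate 1 showed the deeper reduction, as it did at 79.7% of the reduced regions. The median D of the whole list was also lower in replicate 1, at -0.37 against 0.05. All 8 were narrow, with R15336 the widest at 373 bp.

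The Zscan4- level enters D, and with the pseudocount of 0.5 the rule asks for a lower remaining share where that level is low, so the following shares are shaped by the rule. With the list split into 4 classes of like size, they made up 0.98% of the class of lowest mean Zscan4- level (at most 3.72 RPKM), 3.50% and 2.72% of the middle classes, and 2.74% of the highest (8.21 to 92.12 RPKM). The median remaining share was 30.6%, 34.1%, 34.8% and 36.3% in the same order.

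Width had not been used to choose the regions, although a narrow region holds fewer reads behind its D. The reduced regions had a median width of 1048 bp (quartiles 500 and 1518 bp, largest 3250 bp), against 1111 bp over all regions and 1263 bp over the unchanged ones. The widths of the list pile up at a few exact values: 422 regions were exactly 0.214 kb wide, 721 exactly 0.228 kb and 575 exactly 0.5 kb. Reduced regions made up 52 of the 721 at 0.228 kb, or 7.21% (exact 95% interval 5.43% to 9.35%). They made up 0 of the 422 at 0.214 kb (up to 0.87%) and 0 of the 105 between these widths (up to 3.45%). Doubled regions, with D of at least 1 in both replicates, showed the reverse, with 92 of the 422 at 0.214 kb (21.8%) and 2 of the 721 at 0.228 kb (0.28%). Regions 14 bp apart in width thus leaned in opposite directions: over all of them the median D in replicates 1 and 2 was 0.26 and 0.64 at 0.214 kb and -0.69 and -0.16 at 0.228 kb. The sources used here do not give the calling of the list, and its part in these widths was not tested.

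**Figure D3:**
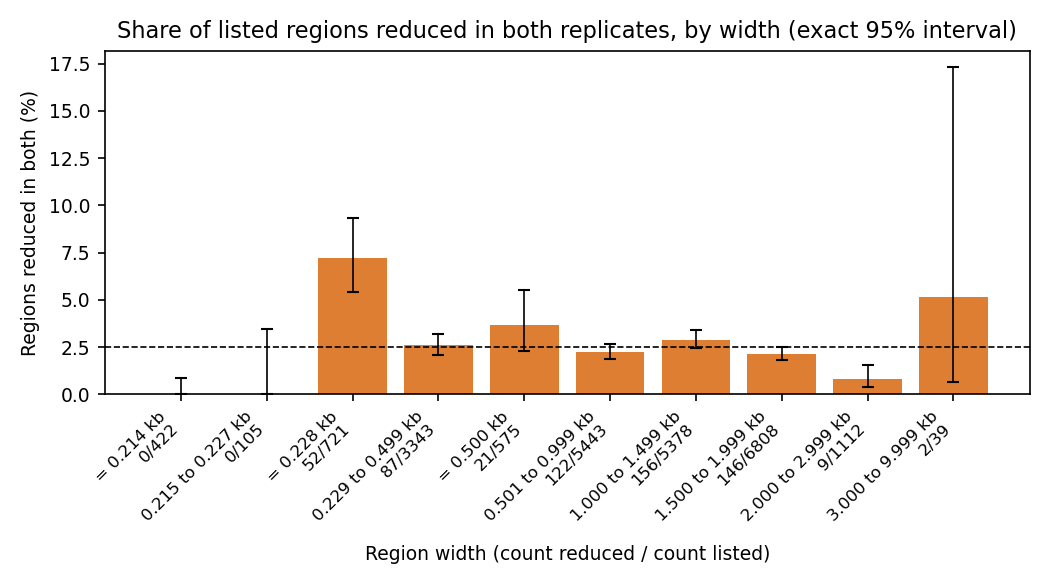
Share of listed regions that were reduced in both replicates, in percent, by region width, with exact 95% binomial intervals that treat regions as independent; the dashed line is the 2.48% of the whole list. The bar at exactly 0.228 kb reaches 7.21%, and the 527 regions narrower than that hold none.

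Above 0.228 kb the share of reduced regions ran between 2.14% and 3.65% in every class below 2 kb, and was 0.81% (0.37% to 1.53%) from 2 kb to under 3 kb. The 52 regions of 0.228 kb were 8.74% of the reduced set, against 5.21% of the list at or below that width, and 11 of the 30 regions with the lowest mean D were among them. They held a median of 33.5 pooled reads in Zscan4- and 14 in Zscan4+ libraries, against 336 and 141 for reduced regions of 1.5 kb to under 2 kb. With at least 50 reads required in each Zscan4- library, 309 reduced regions were left and 1.62% of them were 0.228 kb wide. The median remaining share of the reduced regions, which the rule holds down, differed little across widths. It was 30.4% for 0.228 kb and 35.9% for 1.5 kb to under 2 kb.

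The widest reduced regions were each measured by a single value over the whole width. They kept shares like those of other reduced regions, which the rule holds down at any width. Of listed regions 3 kb or wider, 2 of 39 were reduced (5.13%, interval 0.63% to 17.32%). Over all regions of 2 kb to under 3 kb the median D was -0.27 and 0.14 in replicates 1 and 2. The widest reduced region, R11575 (chr19:46602139-46605389, 3250 bp), stood at 4.40 and 5.08 RPKM in Zscan4- cells and at 1.13 and 1.99 in Zscan4+ cells. Those values rest on 435 and 170 pooled reads, a remaining share of 31.6% (26.4% to 37.9%). Replicates 1 and 2 kept 25.7% and 39.2%, both outside that interval. R13352 (chr2:169978147-169981188, 3041 bp) went from 3.44 and 3.85 to 1.03 and 1.59 RPKM. At both, as at every reduced region, both Zscan4+ values lay below both Zscan4- values, which the rule largely fixes. R17653 (chr5:145266778-145268923) kept 24% and 42.6% in replicates 1 and 2, and R08165 (chr15:97411626-97413745) kept 29.5% and 47.3%. In all 4 the remaining share was lower in replicate 1 than in replicate 2, as was its median over all listed regions (75% and 104%). In total the 595 regions covered 617 kb. They held 2.67% and 2.70% of the reads in listed regions in the Zscan4- libraries, and 1.04% and 1.00% in the Zscan4+ libraries.

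Reduced regions mostly stood singly among regions that were not reduced 2-fold. A listed region lay within 50 kb of 467 of them (78.5%, against 82.8% of all regions), but another reduced region lay within 50 kb of only 81 (13.6%, exact 95% interval 11% to 16.6%). Over all listed regions 5.86% had a reduced region that close. An unchanged region lay within 50 kb of 244 reduced regions (41.0%), against 55.6% of all regions, and a doubled one within 50 kb of 31 (5.21%), against 11.7%. All listed neighbours within 50 kb were unchanged at 43 of the 595 reduced regions and at 2245 of all 23946. The share with another reduced region within 50 kb depends on how many regions meet the rule: leaving out Zscan4+ replicate 2 gave 40.3%, and leaving out Zscan4+ replicate 1 gave 8.47%.

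The neighbours leaned the same way, the more so the closer they lay. Within 2 kb of a reduced region, the median D of the 89 neighbours was -0.98 in replicate 1 and -0.72 in replicate 2, against -0.39 and 0.05 for neighbours of any listed region at that distance. Of these 89, 80 or 89.9% were below 0 in both replicates, 18 were themselves reduced, 10 were unchanged and 0 were doubled. From 2 to 5 kb the medians were -0.79 and -0.40, and from 20 to 50 kb -0.66 and -0.20. The share of unchanged neighbours rose with distance, from 11.2% within 2 kb to 28.1% between 20 and 50 kb, while around any listed region it lay between 33.6% and 37.9%. Among all 1544 pairs within 50 kb, the neighbour was lower in both replicates without reaching the limit in 813 (52.7%), against 35.2% around any region. Neighbours come from the same libraries and the same contrast as the choice of regions, and pairs of reduced regions are counted from both sides, so these shares are a description.

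**Figure D4:**
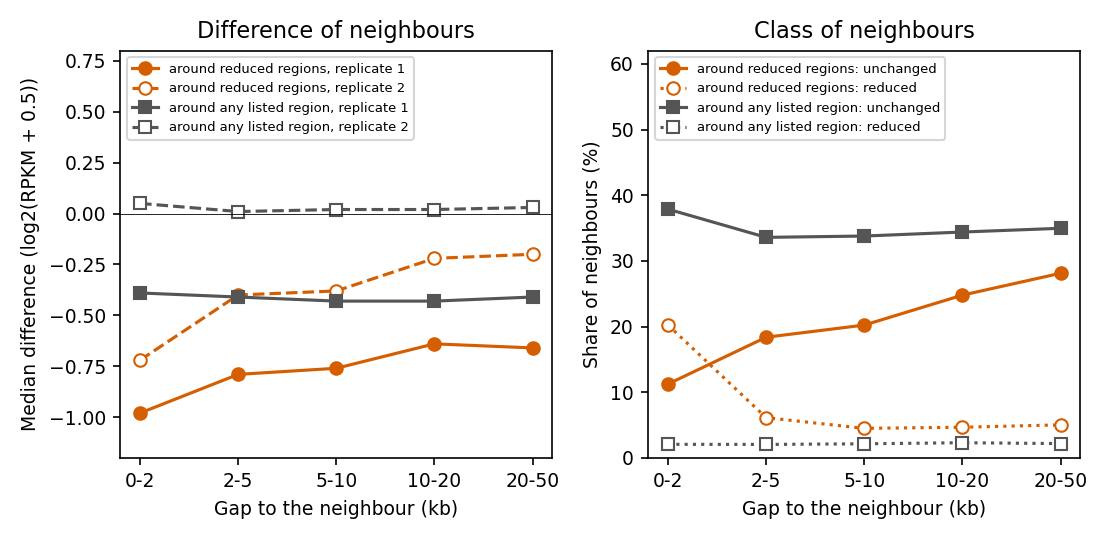
Left, median D of neighbouring regions against the gap between them in kb, in replicates 1 and 2, around the reduced regions and around any listed region; right, the percentage of those neighbours that were unchanged or reduced. Around reduced regions the medians climb from -0.98 and -0.72 within 2 kb to -0.66 and -0.20 at 20 to 50 kb and do not reach those around any region.

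Some reduced regions lay directly beside unchanged ones, though less often than listed regions in general. With a listed region within 50 kb on both sides, 14 of 251 reduced regions (5.58%) had an unchanged one next to them on each side, against 12.9% of all such regions. R07008 (chr14:64256476-64256864) was the strongest of these, going from 20.23 and 23.07 RPKM in Zscan4- cells to 7.19 and 10.85 in Zscan4+ cells. Its neighbour 14.7 kb away, R07009, had 4.64 and 4.03 RPKM and then 3.79 and 5.25. R03579 (chr11:75467210-75467502) went from 12.75 and 12.92 to 2.81 and 5.59 RPKM between neighbours 22.9 and 25 kb away. R12100 (chr2:34725396-34725624) went from 11.47 and 13.58 to 4.56 and 5.79 RPKM. The region 527 bp to its right, R12101, started at a like level of 10.93 and 12.47 RPKM and stood at 8.00 and 17.06 RPKM in Zscan4+ cells, below its earlier level in replicate 1 and above it in replicate 2. A further example, chosen after its values were seen, was R12057 (chr2:32308808-32310792, 1984 bp), which kept 24.2% and 41.7% in replicates 1 and 2. Its neighbour at a gap of 1118 bp, R12056, had 120% and 129% of its Zscan4- level. Reduced and unchanged regions are classes set by D in these same libraries. A difference across such a gap therefore follows from the classes and is only described here.

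A more strongly acetylated neighbour lay within 50 kb of 309 of the 467 reduced regions with a neighbour (66.2%, against 72.3% over the whole list). The stronger neighbours had a median of 12.9 RPKM in Zscan4- cells and kept a median of 67.2%, while the reduced regions beside them had 4.74 RPKM and kept 34.7%, a value that the rule holds down. Over the whole list the stronger neighbours kept 84.0% and the weaker regions beside them 91.3%. Of the 309, 22 stronger neighbours were themselves reduced regions and 74 (23.9%) were unchanged, against 36.4% unchanged over the whole list.

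Runs of adjacent listed regions that were all reduced were short, in a list of which 2.48% was reduced. Of the 595, 519 had no reduced region next to them in the list, 33 runs held 2, 2 runs held 3 and 1 run held 4. No share over all regions is given beside the 76 in runs of 2 or more. By distance, another reduced region lay within 50 kb of 13.6% of the reduced regions, against 5.86% of all regions. The run of 4, R08654 to R08657 on chromosome 16 (29719474 to 29814882), spanned 95.4 kb, with mean levels of 5.94 and 6.23 RPKM in Zscan4- cells and 1.74 and 2.70 in Zscan4+ cells. Its members kept between 29.3% and 40.2% as the mean of both replicates, where the quartiles of all 595 were 30.4% and 38.2%, and were 751 to 1697 bp wide. R09693 to R09695 on chromosome 17 (35863798 to 35960152) had means of 3.92 and 4.24 RPKM, then 1.16 and 1.65. R13820 to R13822 on chromosome 3 (52365264 to 52760897) were next to each other in the list, but 392 kb separated the last 2. The closest pair, R17126 and R17127 on chromosome 5 (114626334 to 114627551), 575 bp apart, went from means of 19.40 and 23.95 to 7.11 and 11 RPKM.

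The densest group lay on chromosome 12 from 12715312 to 12995152, a 1 Mb search chosen after the data had been seen. In these 280 kb, 7 of the 17 listed regions were reduced, 15 were below 0 in both replicates, and 0 were unchanged. The 7 had 3.34 to 10.17 RPKM in Zscan4- replicate 1 and 1.19 to 2.68 in Zscan4+ replicate 1, and kept 30.0% to 43.2% as the mean of both replicates. The 2 strongest regions of the span did not meet the rule, and neither did several weaker ones. R04540 (chr12:12934523-12934782) stood at 45.84 and 45 RPKM in Zscan4- cells and at 23.44 and 29.83 in Zscan4+ cells, keeping 51.1% and 66.3%. R04541 (chr12:12949558-12949924) kept 62.5% and 79.3%. Among the weaker ones R04532, at 4.56 and 4.04 RPKM in Zscan4- cells, kept 66.2% and 113%. One region in the middle was higher in both replicates: R04537 (chr12:12909095-12909309), 0.214 kb wide, stood at 6.11 and 5.00 RPKM in Zscan4- cells and at 10.22 and 15.56 in Zscan4+ cells. The next densest groups held 5 reduced regions each. One, on chromosome 17 from 35201363 to 36129922, also held 15 unchanged regions among its 35, so a group of reduced regions could lie among many unchanged ones.

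**Figure D5:**
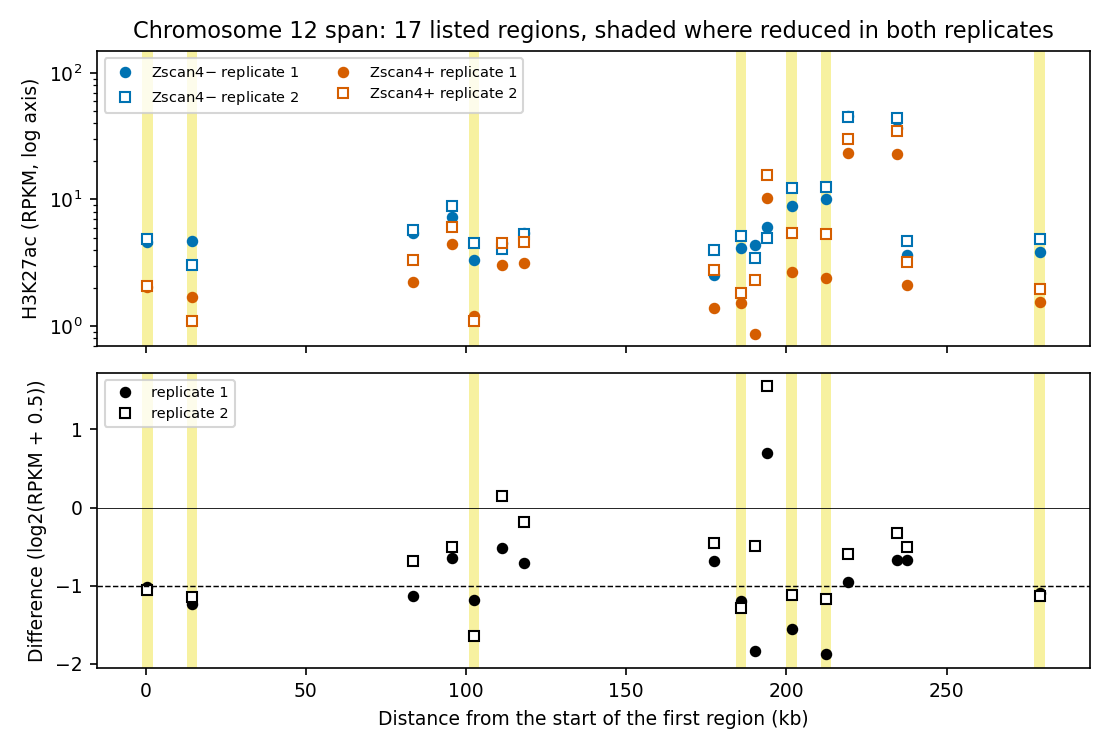
The 17 listed regions of the chromosome 12 span by distance from the start of the first; above, RPKM on a log axis in each of the 4 libraries, below, D in replicates 1 and 2 with the limit of -1 dashed. The 7 shaded reduced regions sit at 12.61 RPKM or below in Zscan4- cells. The 2 strongest regions, R04540 at 45.84 and R04541 at 36.84 RPKM in Zscan4- replicate 1, stay above the limit, as does the weaker R04532 at 4.56 RPKM.

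Each of the 19 autosomes held reduced regions, as did the X chromosome. Their share of the listed regions ran from 1.78% on chromosome 1 (25 of 1408) to 3.86% on chromosome 15 (37 of 958, exact 95% interval 2.73% to 5.28%), with 3.49% on chromosome 12 and 3.35% on chromosome 17. The X chromosome had 5 of 603, or 0.83% (0.27% to 1.92%), and the 4 listed regions of the Y chromosome held 0 (up to 60.2%). The X chromosome was low in each replicate alone, with 6.97% of its regions at the limit in replicate 1 and 1.49% in replicate 2. The autosomes ran between 11.6% and 16.7% in replicate 1 and between 2.35% and 4.70% in replicate 2. The median D of all regions was also higher on the X chromosome, at -0.27 and 0.14, and lowest on chromosome 15, at -0.46 and -0.03. With the Y chromosome left out, X and 15 stood at opposite ends in the share and in both medians, and no test was made of this.

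Along the chromosomes, reduced regions were more frequent some way in from the far end, which in the mouse is the end opposite the centromere. Counted from the last listed region of each chromosome, they made up 1 of 236 regions in the last 1 Mb (0.42%), 10 of 204 from 1 to 2 Mb (4.90%), 27 of 683 from 2 to 5 Mb (3.95%) and 51 of 1095 from 5 to 10 Mb (4.66%, exact 95% interval 3.49% to 6.08%). From 10 Mb inward the share was 2.58% or less. The median D of all regions followed, at -0.53 and -0.10 in replicates 1 and 2 from 5 to 10 Mb, against -0.34 and 0.08 beyond 50 Mb and -0.23 and 0.23 in the last 1 Mb. Counted from the first listed region, the share was between 1.00% and 2.00% in each class up to 20 Mb and 2.63% to 2.66% beyond. Chromosome 11 gave 9 of the 38 reduced regions within 5 Mb of a last listed region and chromosome 15 gave 6. The intervals treat regions as independent, which neighbours within 50 kb are not.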

How the data were processed

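H3K27ac ChIP-seq was measured in 2 Zscan4- and 2 Zscan4+ libraries, grouped by their descriptions. Per the file headers, the authors deposited RPKM for each region, with 2 decimals, over one region list shared by the 4 libraries. The submitters' processing notes name Bowtie, HOMER and build mm9, without their roles. No tool version and no setting for calling regions is given in the sources used here. Coordinates are printed as deposited. No mm9 annotation or sequence was used, so no gene or marker list was applied.

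Regions were joined by identifier and taken by the rule given in the report. The regions and definitions were chosen with earlier results of these data known. Whole reads were recovered from RPKM times width, with 97.1% to 99.97% of values below 50 reads within 0.1 of a whole number. Replicates differed beyond sampling noise, at chi-square per degree of freedom of 1.91 (Zscan4-) and 2.94 (Zscan4+). Each library therefore entered the limma fit on its own. Reads were pooled within a group only for the pooled read counts and remaining shares, whose intervals leave out the spread between replicates. limma 3.58.1 in R 4.3.3, two-sided, with trended moderated variance and Benjamini-Hochberg adjustment, was fitted to log2(RPKM + 0.5) of every region averaging 0.5 RPKM or more, and was tested on simulated data. The numbers were taken to pair libraries, since the protocol in the labels prepared replicate 2 differently; replicate differences correlated at 0.35 between the groups across regions. Intervals are exact (Clopper-Pearson, 95%), with scipy 1.17.1 in Python 3.11.15. Named regions are the 8 of lowest mean D, the 8 of highest Zscan4- and 4 of highest Zscan4+ level, the 4 widest, the 4 longest runs, 2 on each side of the limit and 3 between unchanged neighbours. Alternatives were other pseudocounts, limits, scalings, minimum levels or reads, pairings, voom, a replicate block and leaving out each library.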

Additional observations from a re-analysis of the deposited data

How the results depend on the processing

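The number of reduced regions (595) was 352 with a pseudocount of 1, 984 with quantile normalization, 1295 and 230 with limits of -0.8 and -1.2 for D, 347 when all 4 pairs of libraries had to reach the limit, 1470 when only the group means had to, 309 with at least 50 reads in each Zscan4- library, and between 425 and 2625 with any one library left out. All 352, 230, 347 and 309 regions were among the 595, because each of these settings can only narrow the rule. The median remaining share (34.5%) was 27.2% with quantile normalization and stayed within the spread between replicates under the 14 other settings. The share at 0.228 kb (8.74%) was 11.4% with a pseudocount of 1, 6.50% with quantile normalization, 12.6% with a limit of -1.2, 1.62% with at least 50 reads, and 6.82% to 11.8% with one library omitted; it has no value among wider regions. The share with another reduced region within 50 kb (13.6%) was 19.9% with a pseudocount of 0.1, 17.4% with median centring, 19.2% with quantile normalization, 25.4% and 6.96% with limits of -0.8 and -1.2, 8.07% with all 4 pairs, 28.8% with group means, and 8.47% to 40.3% with one library omitted. The cause of these differences was not tested. The share within 5 Mb of the last listed region (6.39%) stayed within its counting interval under all 15 settings. It pools the last 1 Mb with the classes up to 5 Mb and leaves out 5 to 10 Mb. The pattern across those classes was therefore not checked by it. Of the 595, limma called 594 lower, 595 with the replicate block, alone or with quantile normalization, and 49 to 594 with one library omitted. Over the whole list limma called 6.82% lower, 10.87% with the replicate block, and 23.1% with the block and quantile normalization. Each fit with one library omitted left 1 library in a group, and the share of the whole list called lower varied among these fits. Nothing is therefore read from their counts. For the 39 named regions, 0 of 546 values reversed in sign. These regions were chosen with D near or below -1 in both replicates, so reversals were unlikely from the outset. With all 4 libraries kept, 1 named region lost the call, under voom. Depth limits the size of single reductions, since the counting interval excluded 50% in both replicates at 88 regions.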

Other observations

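The 2754 regions that reached the limit in replicate 1 only had a median width of 961.5 bp and stood at medians of 5.33 and 5.15 RPKM in Zscan4- cells. In Zscan4+ replicates 1 and 2 they stood at 2.00 and 3.6 RPKM. Their median D in replicate 2 was -0.56, 2595 of them (94.2%) were below 0 there, and 1161 were within 0.5 of 0. The 154 regions that reached it in replicate 2 only stood at medians of 3.63 and 4.70 RPKM in Zscan4- cells and 2.05 and 1.76 in Zscan4+ cells. Their median D in replicate 1 was -0.77, and 151 were below 0 there. Most regions past the limit in one replicate thus leaned the same way in the other, from the same contrast that defined them. Over the whole list the median D was -0.37 in replicate 1, where most listed regions therefore lay below 0 as well, and 0.05 in replicate 2. The share of all regions below 0 is not given beside these counts, so they are only a description.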
